A study of Mus musculus with 2 samples.

Results

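The 10 genes described here make, sense and destroy retinoic acid in the mouse embryo: the synthesis enzymes Aldh1a1, Aldh1a2 and Aldh1a3, the receptors Rara, Rarb and Rarg, the breakdown enzymes Cyp26a1 and Cyp26b1, and the binding proteins Crabp1 and Crabp2. They were taken by gene symbol and are 10 of the 21937 gene features counted. Transcripts were counted in 5678 single cells of E11.5 embryos, captured with a droplet kit that reads the 3′ end of polyadenylated RNA and tags each molecule with a unique molecular identifier (UMI). The cells came from 4 suspensions, each labelled with its own CellPlex oligo and pooled into 1 library. F0_8 and F0_9 were each a founder embryo, grown from a C57BL/6J egg fertilized in vitro that had received piggyBac transposase mRNA and donor DNA. A single F1 embryo gave F1_1, and cells of distinct F1 embryos were combined to give the artificial mosaic F1_mix, which counts as 1 sample here. All 4 suspensions carried the transgene, EGFP under the CAG promoter linked to a DNA barcode, so that there was no embryo without it. The founders can differ from cell to cell in their insertions. No age beyond E11.5 and no sex was given, and an embryo was sampled as a whole, so that a cell type mixes positions along the body.

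Retinoic acid is made from vitamin A in a pair of oxidation steps. Retinol is first turned to retinaldehyde, mainly by Rdh10, and retinaldehyde is then turned to retinoic acid by the Aldh1a enzymes. The acid enters the nucleus, where the receptors Rara, Rarb and Rarg bind DNA together with an Rxr partner, and the Cyp26 enzymes oxidize it for disposal, so that tissues that make it often lie next to tissues that remove it. Crabp2 is known to carry the acid to the receptors, and Crabp1 holds it in the cytoplasm and is linked to its turnover. In the embryo the pathway is known for patterning the hindbrain and spinal cord, the limb, the heart and the eye.

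Rarb and Cyp26a1 are textbook targets of the receptors themselves, which bind a direct repeat of a short unit with 5 bases between the copies. The promoter windows of RefSeq (GRCm38.p6, 250 bases before to 50 bases after each annotated start) were searched on both strands for 2 copies at that spacing of the unit AGTTCA, the unit GGTTCA, the unit AGGTCA or the unit GGGTCA (in any pairing), which makes a stretch of 17 bases. Of 32851 windows, 32 held such a repeat (0.0974%), belonging to 31 of 27025 genes. A window was found for 8 of the 10 genes (all but Aldh1a3 and Crabp2, 13 windows in all), and the repeat was present in 1 window each of Rarb and Cyp26a1. None of the 39 windows of 25 other pathway genes held it. The 30 bases around each repeat are shown 5′ to 3′ on the strand of the gene, with the repeat in capitals. In Rarb (chr14:16575506-16575535, minus strand) the repeat covers bases 53 to 37 before the annotated start of its window, and in Cyp26a1 (chr19:37697770-37697799, plus strand) it covers bases 32 to 16 before the start and reads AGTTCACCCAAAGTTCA on the opposite strand. Both starts lie inside the annotated gene, which begins further upstream, and are thus not its outermost ones.
Rarb: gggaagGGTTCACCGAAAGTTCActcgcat
Cyp26a1: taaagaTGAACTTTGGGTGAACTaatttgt
A match in the letters is a description of these windows, and counts from the 3′ end of transcripts cannot tell which start site of a gene was in use.

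The suspensions gave 1310 to 1599 cells each, with a median of 10880 to 13267 gene UMIs per cell, and shared no cell barcode. The authors assigned the cells to 16 types by clustering the same expression values, so the differences between types below are descriptions without a test. A level is the number of UMIs of a gene per 10000 gene UMIs of the cells summed, its interval is an exact 95% Poisson interval that covers counting error only, and 2 types are said to be apart where the ranges of their 4 suspension levels do not overlap. The 4 types named for endoderm and liver (Endodermal Progenitor, Foregut, Midgut and Hepatocyte) were shallow, with a median of 721.5 to 1674 gene UMIs per cell against 10898.5 to 29076 in the 12 other types, and median mitochondrial shares of 23.0% to 55.9%. Their labels were not borne out by markers: hepatocyte markers had a level of 0.05 in Hepatocyte, and gut endoderm markers 0.26 in Foregut and 0.07 in Midgut. They are therefore left out of the order of levels. Of the intact types, Epithelial Cell led for epithelial markers at 17.3. Macrophage markers (37.2) outweighed endothelial markers (10.5) in Hematoendothelial Progenitor/Endothelium, and chondrocyte markers stood at 8.92 in Chondrocyte against 13.5 in Gut Mesenchyme/Amniotic Mesoderm (Gut Mesenchyme below). Hepatocyte markers were at 13.4 in Ependymal Cell, where Ttr, a gene that liver and choroid plexus share, is among them. Ttr there was at 31.5 and 6.46 in founders F0_8 and F0_9, 14.5 and 0.0205 in F1_1 and F1_mix.

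The 10 genes spanned a wide range of abundance, from 175 UMIs in 35 cells for Aldh1a1 to 30800 UMIs in 2181 cells for Crabp1. Crabp2 was seen in the most cells, 3384 of 5678 (59.6%), followed by Crabp1 (38.4%), Rarb (31.7%), Rara (29.6%) and Rarg (23.2%). The enzymes were seen in far fewer cells: Cyp26b1 in 10.5%, Aldh1a2 in 6.59%, Cyp26a1 in 2.20%, Aldh1a3 in 1.99% and Aldh1a1 in 0.616%. UMIs were not divided by transcript length, so these values order the genes by how often they were detected and not by how many molecules a cell held. Red blood cells served as a reference for detection. Among 144 Erythroblast cells, whose median depth was 29076 gene UMIs, 8.33% held a UMI of Crabp1 and of Rarb, 6.94% of Crabp2 and 5.56% of Rara. Each of the other genes was found in 0% to 2.78%. These UMIs were not spread evenly: 5 cells held 43 of 50 for Crabp1, 19 of 26 for Rarb and 20 of 25 for Crabp2. The shares are thus not an even background.

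**Figure D1:**
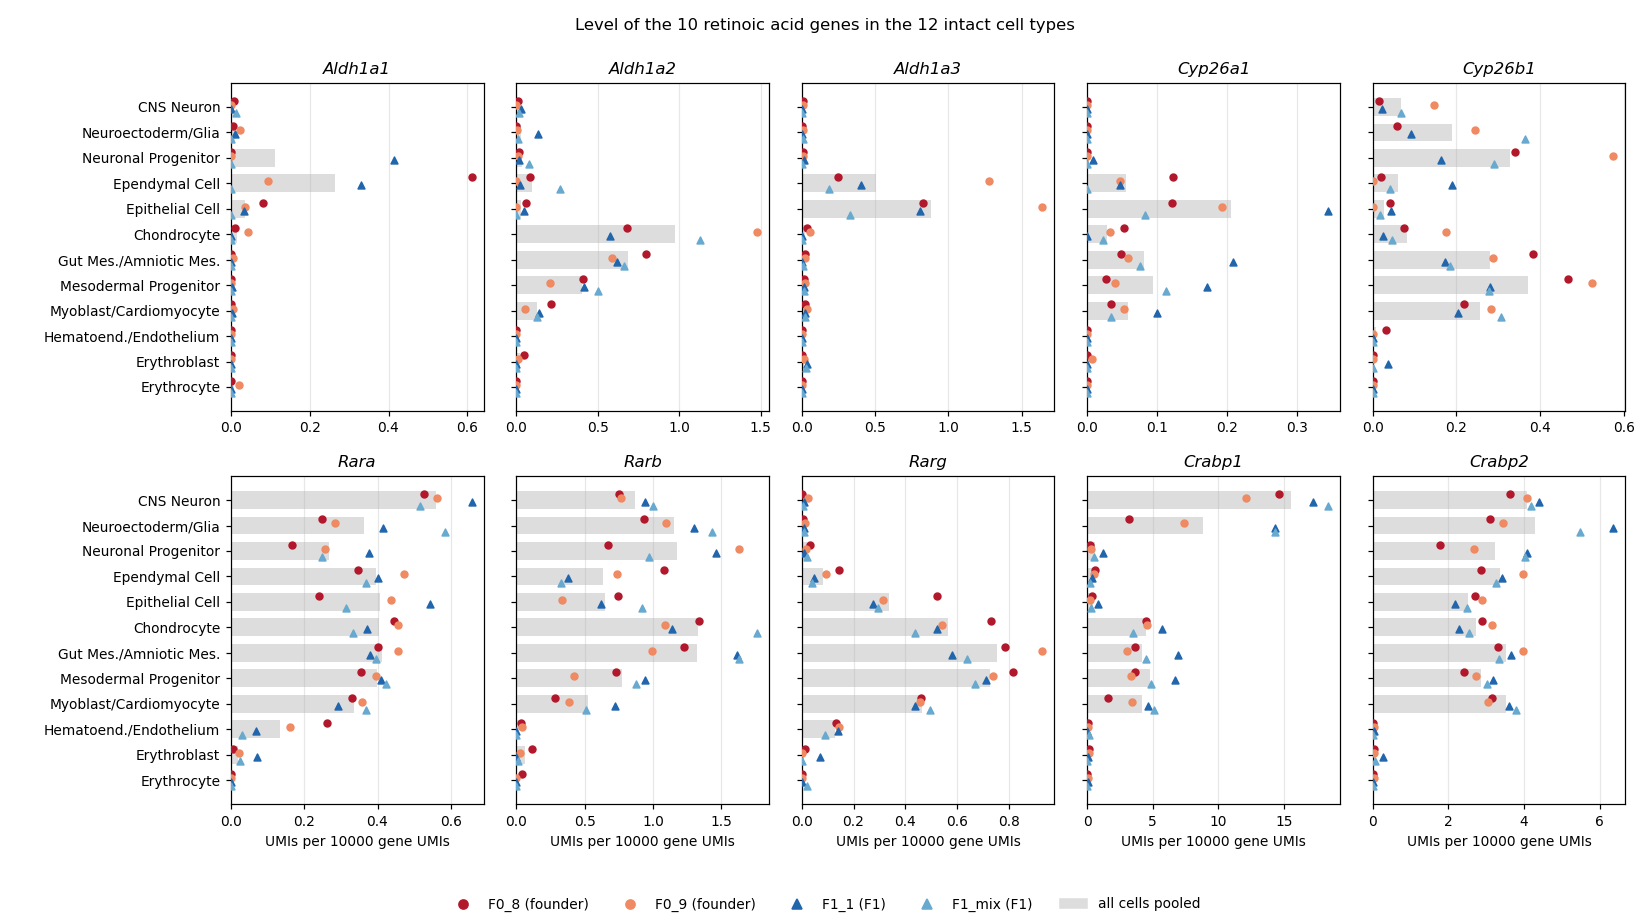
Level of each of the 10 genes (UMIs per 10000 gene UMIs, x axis, with its own scale in each panel) in the 12 intact cell types; grey bars are all cells pooled, circles are the founder suspensions and triangles the F1 suspensions. Crabp1 stood highest in CNS Neuron and Aldh1a3 in Epithelial Cell in all 4 suspensions, while Rara was spread over most types.

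Aldh1a2, the main source of retinoic acid in the embryonic trunk, was a gene of the mesenchyme. Its level in Chondrocyte was 0.977 [0.876 to 1.09], with 0.679 and 1.48 in founders F0_8 and F0_9, 0.576 and 1.13 in F1_1 and F1_mix, and 58 of 296 cells held a UMI (19.6%). In Gut Mesenchyme it was 0.794, 0.590, 0.616 and 0.661 in the same order, from 126 of 674 cells (18.7%). The ranges of these 2 types overlapped, and Chondrocyte stood higher in F0_9 and F1_mix and Gut Mesenchyme in the other suspensions. Mesodermal Progenitor came next at 0.410, 0.206, 0.413 and 0.504, below every value of Gut Mesenchyme, and Myoblast/Cardiomyocyte (Myoblast below) had 0.129 in the pool. Droplets outside the suspensions, taken as a measure of free RNA, held it at 0.195 (more than 100 and up to 300 gene UMIs) and 0.171 (up to 100), above the level of Myoblast. In CNS Neuron, Neuroectoderm/Glia and Neuronal Progenitor the pooled level was 0.0342 or less.

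Aldh1a3, known from the eye and the nasal region, had its UMIs in few cells of a pair of types. Epithelial Cell held 55.1% of all its UMIs, at a level of 0.884 [0.773 to 1.01], with 0.824 and 1.64 in founders F0_8 and F0_9, 0.809 and 0.329 in F1_1 and F1_mix. In Ependymal Cell the levels were 0.244, 1.28, 0.402 and 0.185. The founder F0_9 was the highest suspension and F1_mix the lowest in both types, and neither overlapped the next type, Myoblast, at 0.0234. The Epithelial Cell signal came from 26 of 151 cells, and 61.4% of it from 5 of them.

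Aldh1a1, known from the dorsal retina among other sites, was the rarest gene. Of its 175 UMIs, 74.9% lay in 5 cells. Ependymal Cell had 0.611 and 0.0946 in founders F0_8 and F0_9, 0.331 and 0 in F1_1 and F1_mix, from 7 cells, and 30 of the 48 UMIs were in 1 cell of F0_8. Neuronal Progenitor had 0.413 in F1_1 and 0 in each of the other 3 suspensions, from 6 cells, of which 1 held 58 of 94 UMIs. The order of types for Aldh1a1 thus rests on a handful of cells.

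Cyp26b1, the breakdown enzyme of limb and hindbrain, was highest among intact types in Mesodermal Progenitor, at 0.369 [0.332 to 0.410]. The suspensions gave 0.467 and 0.523 in founders F0_8 and F0_9, 0.281 and 0.277 in F1_1 and F1_mix, and 141 of 496 cells held a UMI (28.4%). Neuronal Progenitor followed with 0.339, 0.574, 0.163 and 0.289, and Gut Mesenchyme (0.281), Myoblast (0.256) and Neuroectoderm/Glia (0.188) also held it. The ranges of neighbours in this order overlapped throughout. Chondrocyte, first for Aldh1a2, was low for Cyp26b1 at 0.0826. The droplets of free RNA with more than 100 gene UMIs held Cyp26b1 at 0.398, above its level over all cells used (0.212) and above that of its highest intact type. Droplets of up to 100 gene UMIs held it at 0.224. Erythroblast, with 144 cells, and Hematoendothelial Progenitor/Endothelium, with 76, held 1 Cyp26b1 UMI each. The part of free RNA in these values was not tested.

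Cyp26a1, the enzyme of the early embryo and tail bud, was highest in Epithelial Cell at 0.205 [0.154 to 0.269], with 0.120 and 0.192 in founders F0_8 and F0_9, 0.344 and 0.0824 in F1_1 and F1_mix, from 18 cells. Mesodermal Progenitor (0.0939), Gut Mesenchyme (0.0817) and Myoblast (0.0589) followed, each overlapping the next. Not a UMI was found in CNS Neuron or Neuroectoderm/Glia, where a count of 0 allows a level of up to 0.00491 and 0.00504.

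Summed by role, the 3 synthesis genes and the 2 breakdown genes gave a ratio that can be set across types, since the same genes enter it each time. Chondrocyte had the highest ratio of synthesis to breakdown UMIs, 9.13, followed by Ependymal Cell (7.52), Epithelial Cell (4.07) and Gut Mesenchyme (1.93). It was 0.899 in Mesodermal Progenitor, 0.490 in Myoblast, 0.462 in Neuronal Progenitor, 0.317 in CNS Neuron and 0.205 in Neuroectoderm/Glia. The other intact types had 2 breakdown UMIs or fewer. In the nervous system these values rest on single suspensions. Neuronal Progenitor was at 2.59 in F1_1, where Aldh1a1 gave all but 7 of the synthesis UMIs, and between 0.0291 and 0.278 in the others, and its pooled ratio was 0.117 without F1_1 and 0.716 without F0_9. Neuroectoderm/Glia was at 0.0874 without F1_1 and 0.339 without F1_mix, and CNS Neuron at 0.706 without F0_9, so that no order among the 3 is given. Without F1_1 the ratio also rose to 11.5 in Ependymal Cell, above Chondrocyte, and to 6.56 in Epithelial Cell. Each suspension was left out after the data had been seen. The ratio was above 1 in all 4 suspensions in the first 4 of these types and below 1 in all 4 in Myoblast; since the genes are not scaled by length, a ratio of 1 has no meaning of its own, and the comparison is between types.

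**Figure D2:**
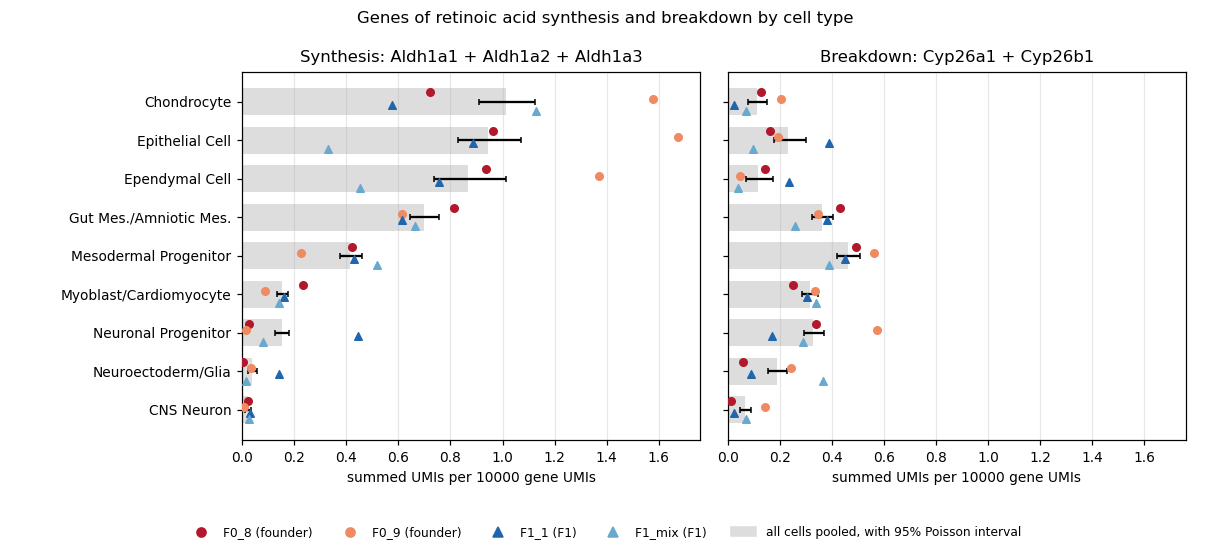
Summed levels of the synthesis genes (left) and of the breakdown genes (right), in UMIs per 10000 gene UMIs on a shared x axis, for the 9 intact cell types with at least 20 cells in every suspension; grey bars with 95% Poisson intervals are all cells pooled, and symbols are suspensions. Chondrocyte stood at 1.01 for synthesis and 0.111 for breakdown, whereas Mesodermal Progenitor stood at 0.416 and 0.463.

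The receptors were less restricted. Rara, the broadly expressed receptor, had its highest intact level in CNS Neuron at 0.561 [0.503 to 0.624], with 0.526 and 0.563 in founders F0_8 and F0_9, 0.657 and 0.515 in F1_1 and F1_mix, above every value of Gut Mesenchyme (0.380 to 0.457). It was not apart from Neuroectoderm/Glia, which was higher in F1_mix at 0.583, nor from Epithelial Cell (0.543 in F1_1). From Gut Mesenchyme at 0.411 down to Neuronal Progenitor at 0.267, the pooled levels of 8 types lay close together and each overlapped the next. The free RNA droplets held Rara at 0.402 (0.355 in those of up to 100 gene UMIs) against 0.347 over all cells used, all within the range of these 8 types.

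Rarg, the receptor of skin, cartilage and limb mesenchyme, divided the embryo into a group of types with it and a group without. Gut Mesenchyme had 0.785 and 0.931 in founders F0_8 and F0_9, 0.580 and 0.638 in F1_1 and F1_mix, and Mesodermal Progenitor had 0.816, 0.740, 0.713 and 0.669. Chondrocyte (0.564), Myoblast (0.465) and Epithelial Cell (0.337) followed, the last without overlap with the intact types below it. Ependymal Cell was at 0.0822, and the neural types were at 0.0189 in Neuronal Progenitor, 0.00981 in CNS Neuron and 0.00840 in Neuroectoderm/Glia. At these depths 321 of 496 Mesodermal Progenitor cells held a Rarg UMI (64.7%) against 6 of 532 CNS Neuron cells (1.13%), a share below that of Erythroblast.

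Rarb, which retinoic acid itself is known to switch on, ran across mesenchyme and nervous system alike. Chondrocyte had 1.34 and 1.09 in founders F0_8 and F0_9, 1.14 and 1.76 in F1_1 and F1_mix, and Gut Mesenchyme had 1.23, 0.989, 1.61 and 1.62. Neuronal Progenitor (1.17) and Neuroectoderm/Glia (1.16) overlapped both, and CNS Neuron (0.865) and Mesodermal Progenitor (0.773) came below. The Rarb gene is long, 651493 bp on chromosome 14 of GRCm38.p6 (16430839 to 17082331), and its pooled level in 3 shallow types, 2.28 in Hepatocyte, 2.18 in Foregut and 1.96 in Midgut, was above that of every intact type. The droplets taken above as a measure of free RNA held Rarb at 1.49, and those of up to 100 gene UMIs at 0.639, against 0.873 over all cells used. The setting for intron reads is not stated in the sources used here. The part of intron reads, damaged cells and free RNA in these values was not tested.

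The binding proteins gave the most UMIs. Crabp1 was highest in CNS Neuron in every suspension, at 14.6 and 12.2 in founders F0_8 and F0_9, 17.2 and 18.4 in F1_1 and F1_mix, and its pooled level was 15.6 [15.3 to 15.9]. Neuroectoderm/Glia had 3.15, 7.40, 14.3 and 14.3, a wide spread in which both founders lay below both F1 suspensions. This difference was not among those called between the generations below. Of the 5246 Crabp1 UMIs of this type, 28.6% lay in 5 of 215 positive cells. Mesodermal Progenitor (4.78), Chondrocyte (4.52), Gut Mesenchyme (4.18) and Myoblast (4.16) formed a second tier, and Neuronal Progenitor, at 0.585, lay below all of them without overlap with Myoblast. Neuronal Progenitor had 0.224 and 0.262 in founders F0_8 and F0_9, 1.18 and 0.550 in F1_1 and F1_mix, and F1_1 gave 269 of its 496 UMIs. Droplets of up to 100 gene UMIs held Crabp1 at 4.95, above the 4 types of the second tier, and the larger droplets of free RNA held it at 1.88. Erythroblast held 50 Crabp1 UMIs, in 12 of its 144 cells. The part of free RNA in these levels was not tested. Within CNS Neuron 269 of 532 cells held a Crabp1 UMI (50.6%), a share that depends on depth (37.9% with cells thinned to 2000 gene UMIs).

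Crabp2 was more even. Its pooled level was highest in Neuroectoderm/Glia at 4.30 [4.13 to 4.47], with 3.11 and 3.44 in founders F0_8 and F0_9, 6.36 and 5.48 in F1_1 and F1_mix. In both founders CNS Neuron stood higher (3.62 and 4.08). The 9 types down to Epithelial Cell (2.52) each overlapped their neighbour. Erythroblast, the next intact type at 0.0577, did not overlap Epithelial Cell.

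Both binding proteins were measured together in the same cells. Among cells of 5000 or more gene UMIs, those with a Crabp1 UMI had a higher Crabp2 level than those without in all 4 suspensions of CNS Neuron (1.37 times in the pool), Chondrocyte (1.89), Gut Mesenchyme (1.52), Mesodermal Progenitor (1.55), Myoblast (2.09) and Neuronal Progenitor (1.76). In Neuroectoderm/Glia the ratio was 1.35, with 3 of 4 suspensions in that direction. In Ependymal Cell (1.03) and Epithelial Cell (0.856) the suspensions were split, 2 in each direction.

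Other genes of the pathway were read from lists of retinoid uptake and storage genes, further receptors and binding proteins, and known retinoic acid responsive genes. Rdh10, the enzyme upstream of the Aldh1a genes, was highest in Chondrocyte (0.319 and 0.370 in founders F0_8 and F0_9, 0.358 and 0.380 in F1_1 and F1_mix), above every value of the next type, Gut Mesenchyme at 0.252. Stra6, the membrane receptor for retinol uptake, was also highest in Chondrocyte (0.344), followed by Myoblast (0.278). Dhrs3, which turns retinaldehyde back to retinol, was highest in Hematoendothelial Progenitor/Endothelium (0.387), then in Chondrocyte (0.273). Chondrocyte thus held the highest intact level of Aldh1a2, Rdh10 and Stra6, and of these Rdh10 was apart from the next type. Rbp4, the retinol carrier of the blood, was highest in Epithelial Cell at 0.221, with 0.626 in F1_mix and 0.155 or less in the others.

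The Rxr partners were low and even. Rxrb was highest in Chondrocyte (0.487), Rxra in Gut Mesenchyme (0.137) and Rxrg in Ependymal Cell (0.132), and each overlapped the type that followed. Cyp26c1, the third breakdown enzyme, was seen with 11 UMIs in Epithelial Cell, a level of 0.0426. Fabp5, a fatty acid-binding protein that can also carry retinoic acid, stood at 13.6 in Erythroblast, 12.7 in CNS Neuron and 11.1 in Neuroectoderm/Glia.

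Genes with the most similar pattern were ranked by Pearson's r of log2(CPM + 10), where CPM are UMIs scaled to the same library size, over 36 sums (4 suspensions in 9 intact types) among 11763 genes. These sums share a library and differ in depth, and the correlations are descriptions. Aldh1a2 was closest to Tbx18 (0.923), Tnc (0.923) and Col6a3 (0.918), and Rarg to Wdr86 (0.956), Snai2 (0.953) and Capn6 (0.949). Aldh1a3 was closest to Afap1l1 (0.928), Fxyd3 (0.903) and Map7 (0.902), and Crabp1 to Ebf3 (0.902), Ebf1 (0.897) and Rbfox2 (0.859). The other genes had looser company: Cyp26a1 with Ly75 (0.789), Vgll4 (0.783) and Tbx1 (0.773), Aldh1a1 with Six6 (0.755), Ttr (0.744) and Fam81a (0.681), Cyp26b1 with Tex14 (0.739), Ahctf1 (0.715) and Prps1 (0.706), and Crabp2 with Shc2 (0.717), Tsc22d3 (0.713) and Parvb (0.694). For Rara (Qsox1, 0.691) and Rarb (Nr2f2, 0.649) no gene reached 0.7. Among the 10 genes themselves the closest pairs were Aldh1a2 with Rarg (0.734) and Rarg with Cyp26a1 (0.572).

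Within some cell types, cells with a transcript for synthesis had lower levels of the breakdown genes. In Mesodermal Progenitor, the cells with a UMI of a synthesis gene had a summed breakdown level of 0.117, against 0.533 in the cells without, and it was lower in all 4 suspensions (0.174 against 0.545 in F0_8, 0.214 against 0.614 in F0_9, 0.0743 against 0.519 in F1_1 and 0.0782 against 0.478 in F1_mix). The 2 groups had similar median depths, 18547 and 18863 gene UMIs. The same direction was found in all 4 suspensions of Gut Mesenchyme (0.629 times) and Myoblast (0.369 times). In Neuronal Progenitor the ratio was 1.16 and the suspensions were split, 2 in each direction. In each of the other 5 types the cells with a synthesis UMI held 7 breakdown UMIs or fewer. These are levels in cells grouped by a measured UMI, cells of 1 suspension are not replicates, and no test was made.

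Rarb and Rarg differed between the same cells in some types. In Mesodermal Progenitor, cells with an Aldh1a2 UMI had Rarb at 1.59 against 0.641 in the others (2.49 times), higher in all 4 suspensions though by the least in F0_9 (0.449 in positive cells). In Gut Mesenchyme (1.79 times), Myoblast (1.79) and Chondrocyte (1.23) it was higher in 3 of 4. In Mesodermal Progenitor, cells with a Cyp26b1 UMI had Rarb at 0.366 against 0.950 (0.385 times), lower in all 4. Cyp26b1-positive cells also had less Rarb in every suspension of Gut Mesenchyme (0.381 times) and Myoblast (0.412 times), and in Chondrocyte (0.238 times, from 7 UMIs), and in 3 of 4 suspensions of Neuronal Progenitor (0.431 times), CNS Neuron (0.347) and Neuroectoderm/Glia (0.822). Rarg went the other way: in Cyp26b1-positive cells it was 1.54 times that of negative cells in Gut Mesenchyme, 1.61 times in Mesodermal Progenitor (0.991 against 0.616) and 1.93 times in Myoblast, higher in all 4 suspensions of each, but at 0.921 times and split in Chondrocyte. In Aldh1a2-positive cells Rarg was 0.676 times the level of negative cells in Gut Mesenchyme and 0.551 times in Chondrocyte, lower in all 4 suspensions of both. In Myoblast it was 0.567 times, lower in 3 of 4, and in Mesodermal Progenitor 0.786 times, with 2 suspensions in each direction.

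**Figure D3:**
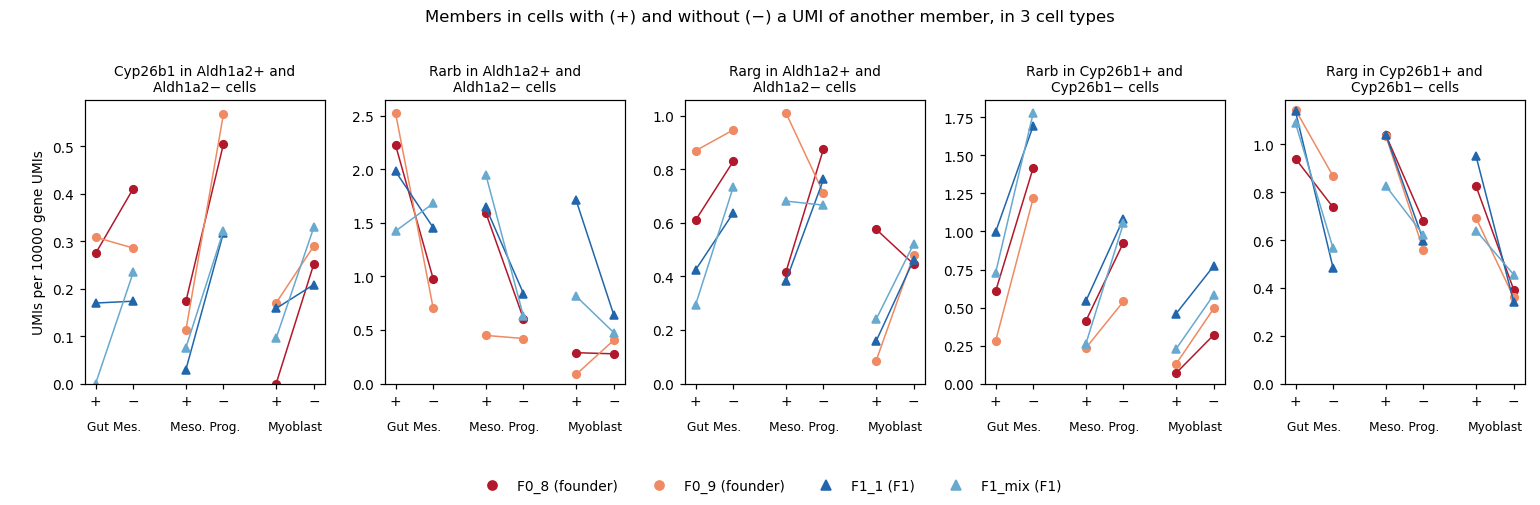
Level of a second gene (UMIs per 10000 gene UMIs, y axis) in cells with (+) and without (−) a UMI of Aldh1a2 or Cyp26b1, in Gut Mesenchyme, Mesodermal Progenitor and Myoblast; each line joins both groups of cells of 1 suspension. In the panel of Rarb in Cyp26b1+ cells all 12 lines rise towards the negative cells, and in the panel of Rarg in Cyp26b1+ cells all 12 fall.

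To see which cells of a type held each gene, 21 marker lists were compared between positive and negative cells in the 2 highest intact types of each gene with 50 or more positive cells, and a list is named where it was at least 2 times higher in the pool and higher in all 4 suspensions (18 of 294 combinations). Aldh1a2-positive cells of Gut Mesenchyme carried markers of epicardium and mesothelium, the lining of heart and body cavity. The list stood at 0.868 against 0.681 in F0_8, 1.40 against 0.837 in F0_9, 2.21 against 0.729 in F1_1 and 4.90 against 0.764 in F1_mix, 2.97 times in the pool. The pooled ratio rests on F1_mix, which gave 217 of the 402 UMIs of the list in positive cells, and was 1.82 times without it, under the limit for naming. Leaving out each suspension, a choice made after seeing the data, kept 15 of the 18 lists past the limit whichever was left out. Wt1 (5.93 times) and Tcf21 (7.67 times), transcription factors of the mesothelium and epicardium, gave the most UMIs of the list in positive cells (123 and 113), whereas Tbx18 was at 1.18 times. Upk3b had the largest ratio of the list (8.01 times, from 38 UMIs), higher in 2 suspensions. Of 8 genes with the largest ratio in these cells, Chrm2 (14.2 times) and Cxcl13 (13.8 times) came first, and Ano1, Rgs5, Sorcs1 and Gata6 were the others beside Wt1 and Tcf21. The endothelial list was also named (2.54 times), on 33 UMIs. Kdr (6.01 times, higher in 3 suspensions), Emcn (4.29 times, in 2) and Tek (0.0276 against 0.0138, in 3) held 12, 15 and 5 of them, Pecam1 held 1, and Cdh5 was at 0 in positive and negative cells alike and Cldn5 in positive cells. It did not meet the limit where 2 or more Aldh1a2 UMIs were required. In Chondrocyte no list was named for Aldh1a2, and Pde5a (4.68 times) led its genes, followed by Lsp1, Igfbp3, Rgs5, Nrp1, Tmem158, Rnf220 and Igfbp5.

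Cyp26b1-positive cells of Mesodermal Progenitor carried markers of the distal limb bud, at 5.43 against 1.73 in F0_8, 7.04 against 0.972 in F0_9, 4.95 against 1.57 in F1_1 and 4.61 against 2.31 in F1_mix. All 6 genes of the list were higher: Lhx2 (6.58 times), Lhx9 (6.28), Hoxa13 (5.05), Hoxd13 (3.48), Msx1 (2.20) and Msx2 (2.16), transcription factors that mark the growing tip of the limb. Dorsal neuron (5.59 times) and retina lists (3.53 times) were named too, but Lhx2 and Lhx9 are shared with them and made up most of their UMIs. The midbrain and floor plate list (2.28 times, but 1.88 without F0_8) took 71.3% of its UMIs from Lmx1b, a gene of dorsal limb mesenchyme as well. Atp6v1g3, a proton pump subunit, had the largest ratio of single genes (28.7 times), ahead of Lhx2, Lhx9, Hoxa13, Sall3, Lhfpl3, Rasgef1b and Hoxd13. In Neuronal Progenitor, Cyp26b1-positive cells named no list, and their leading genes were En2 (3.78 times), Irx2, Cnpy1, Grm3, Unc5c, Mapk10, Irx1 and Kcnq3; En2 and Cnpy1 are genes of the boundary between midbrain and hindbrain.

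Rarg-positive cells of Mesodermal Progenitor shared the distal limb list (3.17 times, 3.74 against 1.18), and the dorsal neuron (3.31 times) and retina lists (2.06 times) that share Lhx2 or Lhx9 with it were named too. Their leading genes were Dlx5 (8.10 times), Hoxd12 (6.78 times), Dlx6, Tfap2b, Lhx9, Rasgef1b, Sall1 and Hoxd13. In Gut Mesenchyme no list reached the limit for Rarg unless 2 or more of its UMIs were required, when the chondrocyte list did (2.50 times). Its leading genes were Acan (11.4 times), the core protein of cartilage matrix, and Cnmd (8.28 times), a cartilage protein, with Srrm4, Luzp2, Dkk1, Nog, Matn4 and Col9a3. Rarb-positive cells had other leading genes: Cemip, which breaks down hyaluronan, came first in Chondrocyte (14.7 times) and in Gut Mesenchyme (9.75 times). Myocd, Crym, Zfp804b, Ecm1, Car3, Cobl and Penk followed in Chondrocyte, and Chrm2, Acta2 (smooth muscle actin, 7.86 times), Wnt2, Tcf21, Grin2a, Ntrk3 and Crym in Gut Mesenchyme. No list was named for Rarb.

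In CNS Neuron, cells with and without the binding proteins or Rara differed in several transcription factors. Crabp1-positive neurons had higher levels of the mesonephros list in all 4 suspensions (5.89 against 1.30 in F0_8, 8.02 against 3.15 in F0_9, 7.45 against 2.20 in F1_1 and 7.62 against 3.57 in F1_mix), carried by Pax2 (3.82 times), Pax8 (5.25 times) and Lhx1 (2.22 times). These transcription factors are known from inhibitory interneurons as well as from kidney, and the other genes of the list, Emx2, Wt1 and Osr1, together gave under 1% of its UMIs. The neural crest list was 2.60 times higher, through Foxd3 (12.6 times) and Tfap2a (2.44 times) and not through Sox10 (0.396 times). Evx1, a transcription factor of commissural interneurons, had the largest ratio (23.5 times), ahead of Foxd3, Tafa4, Klhl1, Dgkb, Klhl14, Chrna5 and Arhgap6. A limb and body wall list (2.34 times) took 99.2% of its UMIs from Meis2, and a muscle list (3.66 times) rested on 27 UMIs.

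Crabp2-positive neurons of the same type had the mesonephros list at 6.09 times (Pax2 12.4, Pax8 12.1 and Lhx1 3.98 times) and the neural crest list at 3.12 times (Tfap2a 4.41 times), and an epithelial list at 6.63 times on 79 UMIs. Skor1, a corepressor of dorsal interneurons, led with 47.6 times, ahead of Nrgn, Lhx4, Hoxb1, Nphs1, Klhl14, Kirrel2 and Pax2. Rara-positive neurons had the neural crest list at 2.06 times, with 75.1% of it from Tfap2a, but under the limit without F1_mix (1.77 times) or F0_9 (1.99 times) and where 2 or more Rara UMIs were required. They were led by Megf11 (6.12 times), Skor1 (5.79 times) and Hoxb1 (4.97 times), followed by Id3, Nrgn, Gm28308, Lbx1 and Rapgef4. In Gut Mesenchyme, Rara-positive cells differed least of all, with Kcnq3 first at 3.39 times, then Dkk1, Lhx8, Lmo7, Adamts2, Nell1, Hs6st3 and Adamts20, and no list named.

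In Neuroectoderm/Glia, the genes with the largest ratios in Crabp1-positive cells included Phox2a (8.42 times), a factor of visceral motor and autonomic neurons, Foxd3, Tlx3, Cnmd, Hmx3 and Selenom. The neural crest list was 2.38 times higher there, with Foxd3 at 6.91 times and Sox10 at 0 in positive cells. Crabp2-positive cells were led by Lhx4 (24.9 times), a motor neuron and interneuron factor, and Lhx8 (16.0 times), with Dlc1, Eomes, Itga9, Samd3 and Nfib, and no list met the rule there except the epithelial list in cells of 5000 or more gene UMIs (13.4 times).

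For combinations outside that rule, mostly with fewer positive cells, the lists were looked at after the values above were seen. The 26 Aldh1a3-positive cells of Epithelial Cell had the nasal and olfactory placode list at 7.95 against 1.98 and the retina list at 1.74 against 0.212, both higher in all 4 suspensions. The meninges and cranial mesenchyme list was 2.28 times higher in the same cells, in all 4 suspensions, but from 15 UMIs. The 15 Aldh1a3-positive cells of Ependymal Cell had the retina list at 8.31 against 2.30, higher in all 4. The 7 Aldh1a1-positive cells of that type had it at 18.0 against 2.37, in the 3 suspensions that held such cells. In the same 7 cells the dorsal neuron list (4.28 times, 24 UMIs), the hindbrain and spinal cord progenitor list (2.58 times, 40 UMIs) and the endothelial list (9.14 times, 9 UMIs) were also higher in these 3. The retina list shares Lhx2 with the dorsal neuron list and Pax6 with the hindbrain and spinal cord progenitor list. In Mesodermal Progenitor, 72 Aldh1a2-positive cells had the epicardium and mesothelium list at 2.20 against 0.532, higher in all 4 suspensions, and the mesonephros list at 2.44 against 0.902, also in all 4. Wt1 is in both of these lists, so they are not separate. The 32 Cyp26a1-positive cells of that type had the meninges and cranial mesenchyme list at 5.31 against 2.51 and the motor neuron list at 9.32 against 4.55, each in all 4. The part of single genes in the lists of this paragraph was not examined, so a list name does not give the identity of these cells.

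The labels divide the suspensions into founders and the F1 generation, where the F1 suspensions served the study as controls for its barcode measurements, and expression was compared between the 2 groups here. Summed counts per suspension were compared within each of 13 cell types with 20 or more cells in every suspension, 2 founders against 2 F1 suspensions, by edgeR's quasi-likelihood test with Benjamini-Hochberg adjustment over all genes of that type. Of 130 combinations of gene and type, 68 passed the filter on low counts, 9 were called at an adjusted p under 0.05 (8 lower and 1 higher in founders), and 31 had an unadjusted p under 0.05. The share of all genes with an unadjusted p under 0.05 was lowest in Epithelial Cell (538 of 8066) and highest in Neuroectoderm/Glia (1348 of 9901). Over all genes and types, 0.753% of combinations tested were called, 0.261% lower and 0.492% higher. The levels of the 2 generations did not overlap in 40 of the 68 combinations (25 lower and 15 higher in founders), against 40.6% of all combinations tested. The combinations share the same 4 suspensions and are not independent. The p-values measure only the spread between these 4 suspensions, 2 per generation, 1 of them a mixture. In such sums, fewer cells with a transcript and fewer transcripts per cell give the same result unless the cells are counted, and litter, sex and exact stage cannot be told apart from generation.

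**Figure D4:**
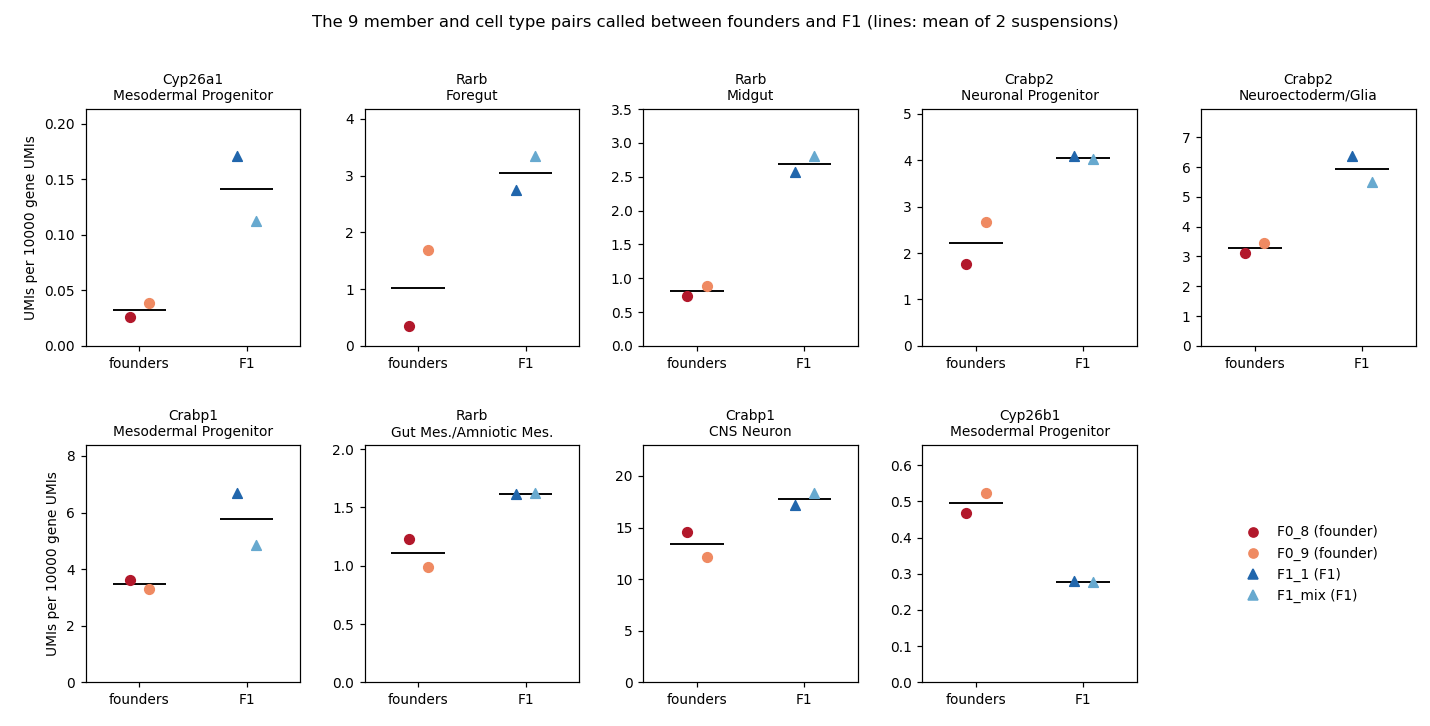
Levels (UMIs per 10000 gene UMIs, y axis from 0) of the 9 combinations of gene and cell type called between founders (circles) and F1 (triangles), with black lines at the mean of 2 suspensions. Cyp26b1 in Mesodermal Progenitor is the one in which both founders lie above both F1 suspensions.

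Mesodermal Progenitor, where 1.07% of all genes tested were called, held 3 of the 9 calls, and both breakdown enzymes were among them in opposite directions. Cyp26b1 was at 0.467 in F0_8 and 0.523 in F0_9 against 0.281 in F1_1 and 0.277 in F1_mix, a log2 difference, founders minus F1, of 0.82 (SE 0.17, adjusted p = 0.0304 by edgeR). Cyp26a1 was at 0.0262 and 0.0390 against 0.171 and 0.112, a log2 difference of -2.13 (SE 0.41, adjusted p = 0.0250 by edgeR). The count of cells moved with both: 47 of 131 and 34 of 96 cells held a Cyp26b1 UMI in the founders against 30 of 128 and 30 of 141 in F1, and 4 and 3 cells held a Cyp26a1 UMI against 13 and 12. Crabp1 was at 3.63 and 3.31 against 6.70 and 4.86 (log2 difference -0.74, SE 0.12, adjusted p = 0.00808 by edgeR). In the same type, the distal limb list was at 3.15 and 3.29 in founders against 2.44 and 2.83 in F1, the mean of the chondrocyte list was 1.29 times higher in founders, and the epithelial list was at 0.0960 and 0.100 against 0.273 and 0.322. Their part in the differences of Cyp26b1, Cyp26a1 and Crabp1 was not tested. Without F0_8 or without F0_9 the adjusted p was 0.0860 and 0.145 for Cyp26b1, 0.269 and 0.0660 for Cyp26a1 (0.0946 without F1_1), and 0.0687 and 0.0690 for Crabp1. With DESeq2 all 3 calls were lost, with adjusted p of 0.691 for Cyp26b1, 0.356 for Cyp26a1 and 0.287 for Crabp1.

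The other calls of Crabp genes were in the nervous system. Crabp2 in Neuroectoderm/Glia was at 3.11 in F0_8 and 3.44 in F0_9 against 6.36 in F1_1 and 5.48 in F1_mix (log2 difference -0.86, SE 0.10, adjusted p = 0.0119 by edgeR, where 1.15% of genes were called). In Neuronal Progenitor it was at 1.77 and 2.67 against 4.08 and 4.02 (-0.91, SE 0.15, adjusted p = 0.0387 by edgeR, where 0.656% were called). Crabp1 in CNS Neuron was at 14.6 and 12.2 against 17.2 and 18.4 (-0.43, SE 0.08, adjusted p = 0.0413 by edgeR, where 0.777% were called). The motor neuron list of Neuroectoderm/Glia was at 6.68 and 5.80 in founders against 8.76 and 9.77 in F1, and in Neuronal Progenitor the dorsal neuron list was at 3.88 and 2.47 against 1.20 and 1.28, and their part in these differences was not tested. The adjusted p became 0.0518 for Crabp2 in Neuroectoderm/Glia without F1_1, 0.0663 for Crabp2 in Neuronal Progenitor without F0_8, and 0.0927 and 0.0570 for Crabp1 in CNS Neuron without F0_8 and without F0_9. With DESeq2 both Crabp2 calls held, and Crabp1 in CNS Neuron was lost (adjusted p = 0.134).

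Rarb was called in 3 types, lower in founders in each. In Gut Mesenchyme, where 1.62% of genes were called, it was at 1.23 in F0_8 and 0.989 in F0_9 against 1.61 in F1_1 and 1.62 in F1_mix (log2 difference -0.55, SE 0.11, adjusted p = 0.0414 by edgeR). In that type the chondrocyte list was at 16.0 and 15.2 against 9.77 and 10.2, and the epicardium and mesothelium list at 0.718 and 0.926 against 1.10 and 1.63, and their part in the difference was not tested. Without F0_8 the adjusted p was 0.0571, without F0_9 it was 0.213, and with DESeq2 it was 0.143. The other calls came from shallow types: Midgut (1.84% of genes called), at 0.732 and 0.885 against 2.57 and 2.80 (-1.60, SE 0.44, adjusted p = 0.0230 by edgeR), and Foregut (1.68% called), at 0.356 and 1.68 against 2.74 and 3.34 (-1.72, SE 0.47, adjusted p = 0.0334 by edgeR). These rest on 79 and 76 UMIs, and the Midgut call was lost without any of the 4 suspensions (adjusted p of 0.0573 to 0.515), the Foregut call without F0_8 (0.842), F1_1 (0.236) or F1_mix (0.291). DESeq2 gave an adjusted p of 0.9999 in Foregut and none in Midgut. With the shallow types left out, an alternative chosen after seeing the data, 7 of 58 combinations were called, 6 of them lower in founders. Over all genes, 0% to 1.62% were called in each of the intact types tested.

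The number of types tested ran from 1 for Aldh1a1, 2 for Aldh1a3, 4 for Cyp26a1 and 5 for Aldh1a2 over 6 for Rarg, 7 for Cyp26b1 and 10 each for Rara and Crabp2 to 11 for Crabp1 and 12 for Rarb. No combination of Aldh1a1, Aldh1a2, Aldh1a3, Rara or Rarg that was tested was called. A p above the threshold does not show equal levels. Without overlap, which was also found in 40.6% of all combinations tested, Rarg had founders above F1 in 4 of its 6 types, namely Chondrocyte, Epithelial Cell, Gut Mesenchyme and Mesodermal Progenitor (log2 differences of 0.40, 0.52, 0.46 and 0.17), and Cyp26b1 in 3 of 7, a share near that background, namely Gut Mesenchyme (0.91), Neuronal Progenitor (0.96) and Mesodermal Progenitor, where it was called.

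Of the 36 other pathway genes, 240 combinations with a type were tested and 9 were called, all lower in founders, beside the 0.753% called over all genes. The median log2 difference, founders minus F1, was -0.0768 over these 240, -0.117 over the 68 of the 10 genes and -0.000803 over all combinations tested. Among the calls, 5 fell on Meis1, Meis2 and Nr2f1, transcription factors known to respond to retinoic acid. In Mesodermal Progenitor, Nr2f1 was at 1.02 in F0_8 and 1.28 in F0_9 against 2.53 in F1_1 and 1.85 in F1_mix (log2 difference -0.95, SE 0.15, adjusted p = 0.00620 by edgeR), with Meis2 (-0.41) and Meis1 (-0.44) also called. In Gut Mesenchyme, Nr2f1 (-0.73) and Meis1 (-0.44) were called.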

How the data were processed

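UMI counts per gene and cell were deposited by the authors as filtered matrices per suspension and a raw matrix (Cell Ranger 7.2.0 per the file headers, mouse genome mm10/GRCm38 with EGFP added), and the cell types came from the authors' table of cells. The authors' methods name Seurat, SoupX and DoubletFinder for quality limits, ambient RNA and doublets. The matrices were used as deposited, uncorrected for ambient RNA, and no further doublet caller was run. Doublets that escaped would appear as cells with markers of more than 1 type. The oligo library was not analysed here.

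Cells of the authors' table were used (5678, 68972620 gene UMIs). A type was called shallow where the median over all cells exceeded its own median depth more than 3 times. Founders and F1 were compared with edgeR 4.0.16 (quasi-likelihood, TMM, filterByExpr) in R 4.3.3 on counts summed per suspension, with DESeq2 1.42.0 as an alternative. The SE of a log2 difference was taken as its size divided by the square root of the F statistic. The scripts were tested on simulated data. Other values came from Python 3.11.15 with numpy 2.4.6, scipy 1.17.1 and pandas 2.3.3, and plots from matplotlib 3.10.9. Promoter windows and gene positions are from RefSeq (GRCm38.p6).

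Named genes were all 10 members, 10 pathway genes (among them Rdh10, Dhrs3, Stra6, Rbp4, Rxra, Rxrb, Rxrg, Cyp26c1 and Fabp5), pathway genes called between generations, the 3 most similar genes per member among those with 200 or more UMIs, and the 8 genes with the largest ratio in positive cells, with 50 or more UMIs there and higher in all 4 suspensions. Some genes that meet these rules are not reported here. The members, lists and rules were chosen with earlier results of these data known.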

Additional observations from a re-analysis of the deposited data

Results flagged for a closer look

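In 30 groups of 4 suspension levels, 3 had a suspension whose gap to the others exceeded Dixon's 95% critical value for 4 samples, where chance gives about 1 in 20. Aldh1a1 in Neuronal Progenitor was at 0.413 UMIs per 10000 in F1_1 and at 0 in the other suspensions. Aldh1a3 in Myoblast/Cardiomyocyte was at 0.0330 in F0_9 and at 0.0206 to 0.0223 in the others. This rests on 7 UMIs in F0_9, 4 of them in 1 cell, and on 4 to 9 UMIs in each of the others. Cyp26a1 in Gut Mesenchyme/Amniotic Mesoderm was at 0.208 in F1_1 and at 0.0487 to 0.0756 in the others.

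The genes below had both founders above both F1 suspensions in some cell types and below them in others, and the difference between the types was not tested. Groups without overlap made up 40.6% of all combinations tested, so that the 4 of 10 for Rara and the 2 of 5 for Aldh1a2 are near the background, against 9 of 12 for Rarb, 8 of 11 for Crabp1 and 7 of 10 for Crabp2. For Rarb this was 1 type above (Ependymal Cell, log2 difference 1.35) and 8 below, and for Crabp1 it was 1 type above (Ependymal Cell, 0.96) and 7 below. Crabp2 was above in 2 types (Chondrocyte, 0.30, and Epithelial Cell, 0.26) and below in 5. Rara was above in 2 types (Chondrocyte and Gut Mesenchyme/Amniotic Mesoderm) and below in 2 (Mesodermal Progenitor and Neuroectoderm/Glia). Aldh1a2 was above in 1 type (the shallow Hepatocyte) and below in 1 (Mesodermal Progenitor). The types of a gene share the same 4 suspensions, so these counts of types are not independent.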

How the results depend on the processing

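Of 80 recomputed levels in the highest intact type (another denominator, equal weights, stricter cells, each suspension left out), 2 moved over 1.5 times: Aldh1a1 from 0.263 to 0.135 without F0_8, and Cyp26a1 from 0.205 to 0.131 without F1_1. Shares of cells with a UMI fell when cells were thinned to 2000 or 5000 gene UMIs, moving out of their interval in 16 of 20. Genes with the same highest intact type in every suspension numbered 2, and 2 to 3 with a suspension left out. The lists named for positive cells numbered 18, and 17 with 2 or more UMIs required (16 shared) and 19 in cells of 5000 or more gene UMIs (18 shared).

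The 9 calls between founders and F1 became 3 of 65 with DESeq2 (3 more had no adjusted p), of which 2 were shared, both of Crabp2, and 25 of 121 without the filter on low counts, of which 7 were shared. The third DESeq2 call was Crabp1 in Neuronal Progenitor (adjusted p = 0.0002355 by DESeq2). By edgeR its log2 difference was -1.86 with an adjusted p of 0.0662, and 41.7% of its 496 UMIs there lay in 5 cells. The 9 calls of the main fit stayed the same 9 with RLE size factors and without mitochondrial and globin genes. The share of all genes called in a type moved with the setting as well. It ran from 0% to 1.84% over the types in the main fit, from 0% to 4.65% without the filter and from 0% to 5.93% with DESeq2. It also changed where a suspension was left out. Leaving out 1 suspension gave 6 to 14, the lone suspension of an arm being taken to vary like the other arm: 6 without F0_8 (1 shared), 6 without F0_9 (3 shared), 12 without F1_1 (5 shared) and 14 without F1_mix (7 shared). Adjusted p by DESeq2 was 0.134 to 0.9999 for the calls it did not keep. Without the filter, Rarb was at 0.0743 in Midgut and 0.0642 in Foregut. The causes were not tested. No paired analysis was possible because the suspensions carry no number that pairs them across generations. With 2 suspensions per generation, and with Aldh1a1 and Cyp26a1 in few cells, depth and number limit these comparisons.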
